A study of Mus with 50 samples.

Results

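Liver RNA of 29 female mice was compared by animal number, 13 livers from animals 84 to 128 against 16 livers from animals 137 to 235, out of 50 livers in all. The animal number stands in brackets in each sample's title, and each liver was measured on 1 Affymetrix whole-transcript array. The stretches of numbers were chosen by the log2 signals of these same arrays, in an earlier search for shifts of all genes along the animal number. Every difference between the 2 groups is therefore a description, and the threshold used below lists genes and supports no claim that the groups differ.

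All 29 mice came from a backcross of C57 and FVB, carried the MMTV-Neu transgene and are labelled with breast cancer as comorbidity, as are the other 21. The MMTV promoter drives the Neu proto-oncogene mainly in mammary epithelium, so the transgene models a mammary tumour in the host of the liver studied. The study took livers from mice with extreme values of a modelled grade of ageing, but the labels give neither that grade nor an age, a litter or a date for any mouse. The labels do not state what the animal number follows, and number cannot be told apart from anything that changed along it. The label names whole liver, while the protocol for RNA isolation refers to purified cell populations; the arrays are treated here as whole liver. Signals are given on the log2 scale, on which a difference of 1 means a doubling. Animals 84 and 235 stood apart, with median correlations with the other 28 arrays of 0.948 and 0.935. Animal 87, set apart with them in earlier work, had 0.967, which lies within the 0.963 to 0.989 of the other 26.

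Rabggtb, the marker of the boundary, encodes the beta subunit of Rab geranylgeranyl transferase. This enzyme attaches lipid tails to Rab proteins, the small GTPases that direct vesicles between membranes, after a Rab escort protein has presented them. The gene is also a host of small nucleolar RNAs (snoRNAs), which are cut from its introns. Box H/ACA snoRNAs (Snora genes) guide the conversion of uridine to pseudouridine in ribosomal RNA, box C/D snoRNAs (Snord genes) guide its 2′-O-methylation, and the related small Cajal body RNAs (Scarna genes) act on spliceosomal RNA. Most mammalian snoRNAs lie in introns of host genes, many of which encode ribosomal proteins, translation factors or the non-coding Snhg transcripts.

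Rabggtb signal in animals 84 to 128 had a lowest value of 7.78, a median of 8.44 and a highest of 9.66. In animals 137 to 235 the lowest was 4.08, the median 6.29 and the highest 7.95. In the later group 15 of 16 livers lay below every liver of the earlier one, and the exception was animal 223. The mean was 8.54 ± 0.50 (SD, n = 13) before and 6.17 ± 1.18 (SD, n = 16) after the boundary. The difference was -2.37 ± 0.33 (SE), a 5.18-fold lower signal, and it was -2.37 ± 0.35 without animals 84, 87 and 235. The later group was also the more uneven one: animals 142, 165, 229 and 187 had 4.08, 4.2, 4.82 and 4.96.

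Next to the boundary, animal 128 had a Rabggtb signal of 8.25 and animal 137 one of 6.51. At the outer limits of the compared stretches, animal 79 had 8.51 against 8.91 in animal 84. Animal 235 had 7.17 against 7.26 in animal 253. Among livers outside the comparison, Rabggtb in animals 7 to 79 ranged from 7.91 to 10.14 with a median of 9.16 (n = 8). In animals 253 to 301 it ranged from 4.58 to 8.87 with a median of 7.40 (n = 13). That last stretch was mixed: animals 253 to 270 lay between 4.58 and 7.87, animal 282 at 7.40, and the 5 animals from 284 to 301 between 8.53 and 8.87.

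A second probe set, annotated to both Rabggtb and its intronic Snord45c, did not show the gap. Its lowest, median and highest signals were 5.45, 5.95 and 6.28 in animals 84 to 128 and 5.23, 5.88 and 6.31 in animals 137 to 235. The groups overlapped along almost their whole range, and the difference was -0.14 ± 0.10. Which transcript or part of the gene either probe set reads was not analysed here. Of the measured neighbours on the chromosome, Acadm, the medium-chain acyl-CoA dehydrogenase of mitochondrial fatty acid oxidation, was lower by -0.45 ± 0.12. Its lowest, median and highest signals were 10.78, 11.05 and 11.91 against 10.04, 10.78 and 11.04. The other neighbours, Msh4, Slc44a5, Asb17, Asb17os and 5730460C07Rik, had differences between -0.03 and 0.03 and were not listed.

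**Figure D1:**
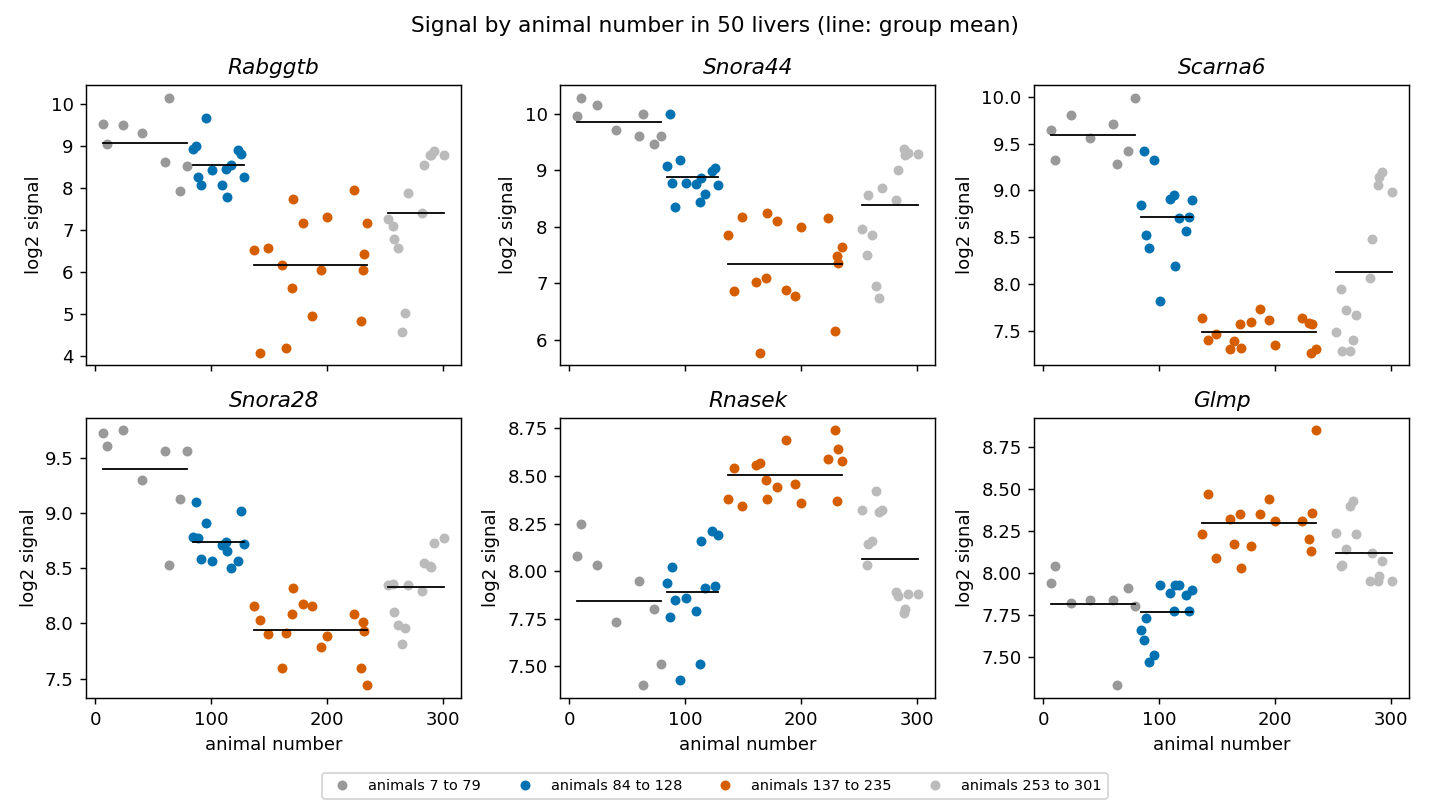
Log2 signal of 6 genes (vertical axes) against animal number (horizontal axes) in all 50 livers; points are single livers, colours the 4 stretches of numbers and horizontal lines the group means. Rabggtb, Snora44, Scarna6 and Snora28 sit lower in animals 137 to 235 than in 84 to 128, whereas Rnasek and Glmp sit higher.

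A gene is called listed where limma gave a Benjamini-Hochberg adjusted p under 0.05 over all 22180 named genes. On this rule 475 genes were lower in animals 137 to 235, 2.14% of the genes tested, and 363 were higher, 1.64%, which makes 838 in either direction (3.78%). Most differences were small: the median was -0.31 over the lower and 0.34 over the higher genes, and 0.00 over all genes. Of the listed genes 42 were lower (0.189% of all genes) and 62 higher (0.28%) by at least 0.5 on the log2 scale, and 7 were lower (0.0316%) and 1 higher (0.00451%) by at least 1. Rabggtb had the largest difference in either direction. Without animals 84, 87 and 235, 546 genes (2.46%) were lower and 470 (2.12%) higher, and 400 of the 475 lower and 313 of the 363 higher genes were listed again. Over all 41345 probe sets, those without a gene symbol included, 671 were lower (1.62%) and 517 higher (1.25%), together 2.87%.

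**Figure D2:**
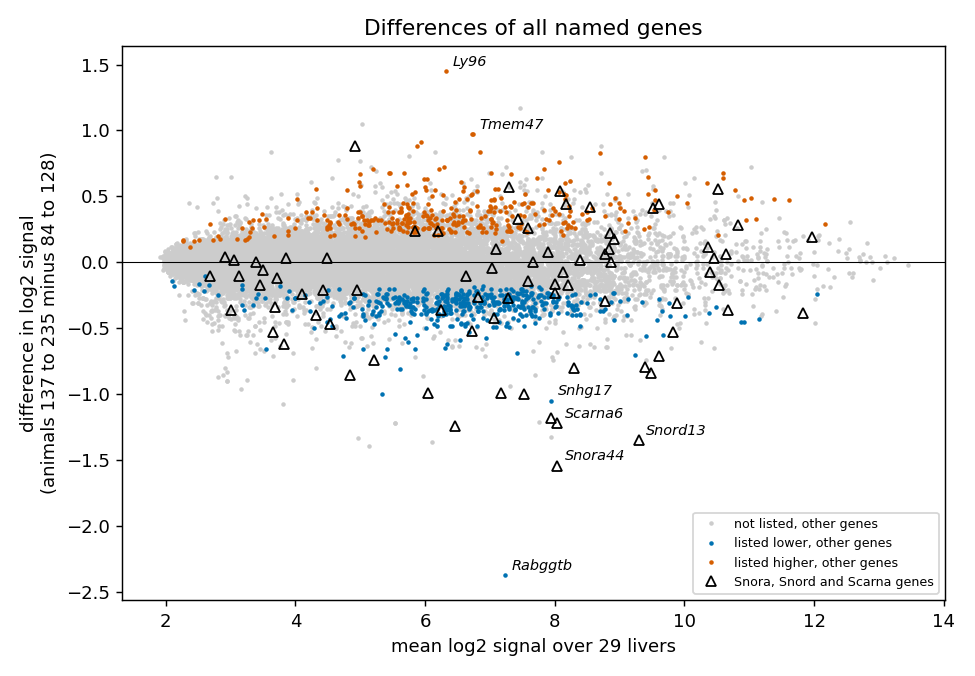
Difference between the groups in log2 units (vertical axis, animals 137 to 235 minus 84 to 128) against the mean log2 signal (horizontal axis) for 22180 named genes; triangles are Snora, Snord and Scarna genes and listed genes are coloured. The lowest point is Rabggtb at -2.37. A group of small RNAs lies between -0.79 and -1.54, with other genes such as Snhg17, Sult1c2, Acot4 and the unlisted Acot3 in the same range.

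The genes furthest below the rest beside Rabggtb were mostly small RNAs. Of the 15 genes with the largest lower differences among those listed both with and without animals 84, 87 and 235, 11 were Snora, Snord or Scarna genes. The other members were Rabggtb itself, the snoRNA host Snhg17, the sulfotransferase Sult1c2 and the acyl-CoA thioesterase Acot4. Chosen in the same way, the 15 largest higher differences held 1 small RNA, Snord83b. Snora74a (-0.85 ± 0.24) would have been among the lower ones but was not listed without the 3 animals.

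Snora44, an H/ACA snoRNA, had a lowest, median and highest signal of 8.35, 8.78 and 9.99 in animals 84 to 128. The corresponding values in animals 137 to 235 were 5.78, 7.43 and 8.25. The groups did not overlap, with a gap of 0.10 between the nearest livers, and the difference was -1.54 ± 0.22, or 2.90-fold. Scarna6, a small Cajal body RNA, had 7.82, 8.72 and 9.42 in the earlier group. In the later group it had 7.27, 7.53 and 7.74, again with no overlap. Its difference was -1.22 ± 0.11 (2.33-fold), and its SD was 0.43 in the earlier and 0.15 in the later livers, the opposite of Rabggtb, whose spread was wider in the later ones.

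Snora31, an H/ACA snoRNA, had 6.62, 7.06 and 8.29 before the boundary and 5.14, 5.95 and 6.59 after it. Its groups were separate but nearly touched, and the difference was -1.24 ± 0.15 (2.36-fold). Snora28 had 8.50, 8.72 and 9.10 against 7.44, 7.97 and 8.32, a difference of -0.80 ± 0.08 (1.74-fold). With 0.18 it had the widest gap of the 7 genes whose groups did not overlap. Snord13, a box C/D RNA known for its part in acetylating ribosomal RNA rather than methylating it, had 9.49, 10.02 and 10.83 against 8.02, 8.61 and 9.86. Its difference was -1.35 ± 0.17 (2.56-fold), and 14 of the 16 later livers lay below all earlier ones, animals 171 and 223 being inside their range.

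Snora73a and Snora73b, both of the U17 family, which takes part in cutting the ribosomal RNA precursor, were lower by -1.18 ± 0.22 and -1.0 ± 0.20. Snora73a had 7.80, 8.45 and 10.00 in the earlier livers and 6.59, 7.31 and 8.55 in the later, so 11 of 16 later livers lay below the earlier range. The same count was 10 for Snora73b. Snora7a was lower by -0.99 ± 0.12, with 15 of 16 livers below. Snora61, Snord71 and Snora16a were lower by -0.99 ± 0.18, -0.84 ± 0.17 and -0.79 ± 0.15, with 12, 13 and 11 livers below.

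Snhg17, a non-coding host of snoRNAs, had 7.91, 8.50 and 9.37 against 6.41, 7.5 and 8.30, a difference of -1.05 ± 0.18. Sult1c2, a cytosolic sulfotransferase, had 5.18, 5.76 and 6.94 against 3.29, 5.07 and 6.04, a difference of -1.0 ± 0.24. Acot4, which splits acyl-CoA esters in peroxisomes, had 5.19, 6.09 and 6.95 against 4.09, 5.37 and 6.36, a difference of -0.81 ± 0.21. For Sult1c2 10 later livers lay below the earlier range, as for Snora73b, and for Acot4 6.

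In the other direction, Ly96 had the largest difference, 1.45 ± 0.26, a 2.72-fold higher signal. It encodes MD-2, the co-receptor with which TLR4 binds lipopolysaccharide. Its lowest, median and highest signals were 4.35, 5.56 and 6.91 in animals 84 to 128 and 5.74, 7.05 and 7.78 in animals 137 to 235. In 10 of the 16 later livers Ly96 lay above all earlier livers. Atp5d, the delta subunit of the mitochondrial ATP synthase, had 5.53, 6.0 and 7.35 against 6.43, 7.17 and 8.19. Its difference was 0.97 ± 0.17, though only 4 later livers lay above the earlier range. Tmem47, a membrane protein of cell junctions, had 5.34, 6.22 and 6.58 against 6.2, 7.11 and 7.98, a difference of 0.97 ± 0.16. Here 14 of the 16 later livers lay above the earlier range.

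The remaining 12 of the 15 largest higher differences, chosen as above, lay between 0.68 and 0.88. They include genes with known roles in different compartments. Vps33b (0.88 ± 0.16) takes part in vesicle fusion, Sh3gl2 (0.83 ± 0.12) in endocytosis, and Slc31a2 (0.71 ± 0.14) is related to copper transporters. Wdr46 (0.84 ± 0.15) is a nucleolar protein, Gatc (0.76 ± 0.16) a subunit of the mitochondrial glutaminyl-tRNA amidotransferase, and Crtap (0.72 ± 0.14) a cofactor of collagen hydroxylation. Mrgpra1 (0.68 ± 0.12) is a G protein-coupled receptor. Also among them were Snord83b (0.88 ± 0.20), Gm4945 (0.80 ± 0.11), Gm13545 (0.71 ± 0.09) and Gm5617 (0.71 ± 0.16).

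Complete separation of the groups was rare. Of the 22180 genes, 5 were lower in every later liver than in any earlier one (0.0225%): Ggnbp2, Scarna6, Snora28, Snora31 and Snora44. In the other direction 2 genes were separate (0.00902%), Glmp and Rnasek. Rnasek, a small membrane protein associated with the vacuolar proton pump, had 7.43, 7.91 and 8.21 against 8.34, 8.51 and 8.74. Its difference was 0.62 ± 0.07 (1.54-fold). Glmp, a lysosomal membrane glycoprotein, had 7.47, 7.77 and 7.93 against 8.03, 8.31 and 8.85, a difference of 0.53 ± 0.07 (1.45-fold). Ggnbp2, which encodes a gametogenetin-binding protein, had 8.43, 8.60 and 9.15 against 7.94, 8.20 and 8.43. Its difference was -0.48 ± 0.06 (1.4-fold), and the nearest livers were only 0.01 apart. Without animals 84, 87 and 235, 9 lower genes (0.0406%) and 3 higher ones (0.0135%) did not overlap, the additions being Eea1, Prpf38b, Snx18 and Trappc6b among the lower and Fkbp1a among the higher.

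Some later livers stood inside the earlier range more often than others. Over the 15 lower and 15 higher genes, animal 171 lay inside the range of animals 84 to 128 for 22 genes, animal 179 for 17, animal 149 for 16 and animal 223 for 15. Animals 165 and 229 did so for 2 genes each.

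By class, the box H/ACA snoRNAs showed the highest share of lower genes. Of 26 Snora genes, 12 were listed lower (46.2%, against 2.14% of all genes), and 22 had a difference below 0. None was listed higher by limma, and 1 was higher at an unadjusted p under 0.05. Their median difference was -0.33, within a range from -1.54 to 0.24, against 0.00 over all genes. The box C/D snoRNAs were divided: of 47 Snord genes 9 were listed lower (19.1%) and 8 higher (17%, against 1.64% of all genes), with a median of -0.04. Of 5 Scarna genes, Scarna6 and Scarna8 were listed lower, and the median of the class was 0.06. Without the 3 animals, 10 Snora, 8 Snord and 2 Scarna genes were lower, and 10 Snord genes were higher.

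Together the 78 small RNAs made up 4.84% of the listed lower genes and 0.352% of all named genes. Of the 78, 23 were lower, 8 higher and 47 not listed. They leave out 46 probe sets annotated to several symbols with a Snora, Snord or Scarna gene among them. With p-values adjusted over all probe sets, 6 of these were lower (13%) and 3 higher (6.52%), with a median of 0.05. The shares over all probe sets were 1.62% and 1.25%. Other classes of non-coding RNA showed smaller shares. Of 1926 long non-coding genes 7 were lower and 6 higher, of 478 microRNA genes 3 and 6, and of 469 pseudogenes 1 and 5. Of 6 genes that RefSeq types as small nuclear RNA 1 was lower, and this was Snord73b, also counted among the Snord genes; none was higher by limma, with 0 at an unadjusted p under 0.05. The 15 numbered Snhg genes had 2 lower and 1 higher members and a median of -0.10. Rpph1, the RNA subunit of RNase P, which trims the leading end of transfer RNA precursors, was higher by 0.68 ± 0.10.

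**Figure D3:**
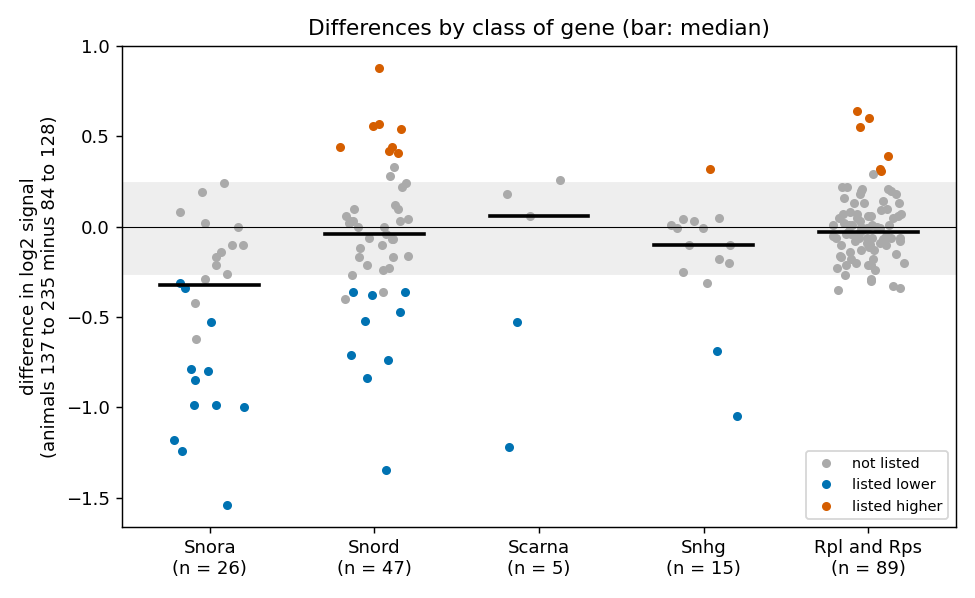
Difference between the groups in log2 units for each Snora, Snord, Scarna, numbered Snhg and Rpl or Rps gene; points are genes, bars the class medians and the grey band the range from the 5th to the 95th percentile of all named genes. Snora genes centre on -0.33, whereas Snord genes spread to both sides of 0.

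Most small RNAs lie within another gene, so each was set beside the gene that spans it in the RefSeq table. For 62 of the 78 exactly 1 spanning gene was measured. Snord87, listed lower at -0.36, is not among these, since both Mcmdc2 and Snhg6 span it and were measured. Snhg6 was itself listed lower, as given below. The 17 listed lower small RNAs among the 62 lie in 13 different genes. None of those 17 pairs had its spanning gene listed by limma in either direction, and the spanning gene of 3 pairs had an unadjusted p under 0.05. The median difference was -0.84 for the small RNAs and -0.10 for the spanning genes, which ranged from -0.33 to 0.17. These pairs were taken for their low small RNA, so that gap follows from the choice. Over all 62 pairs, which share 48 spanning genes and are not independent replicates, Pearson's r between the difference of the small RNA and that of its spanning gene was 0.007. Of the higher small RNAs 5 had 1 measured spanning gene; none of these genes was listed by limma, 1 had an unadjusted p under 0.05, and their median was -0.01.

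Small RNAs within 1 gene had unequal differences. Snhg12, whose own difference was -0.10 ± 0.14, spans Snora44, Snora61 and Snora16a, all lower. It also spans Snord99, which had a lowest, median and highest signal of 9.03, 10.69 and 11.19 against 9.26, 10.75 and 11.06, a difference of 0.12 ± 0.25. Snhg3 spans Snora73a and Snora73b and itself had -0.31 ± 0.17. Kansl2 (0.17) spans Snora34 (-0.53) and Snora2b (-0.34). Spanning genes that encode proteins included Tpt1 (-0.17) around Snora31, Atg16l1 (0.01) around Scarna6, Eif5 (-0.18) around Snora28 and Rpl32 (0.13) around Snora7a. Eef2, the elongation factor, had 0.01 while its Snord37 had -0.74.

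Among the higher small RNAs, Snord83b lies in Rpl3 (0.05). Snord70 was higher by 0.57 ± 0.13 and lies in Nop58 (-0.27), which itself encodes a core protein of box C/D particles. Snord8 (0.44) lies in Chd8 (-0.09), Snord110 (0.44) in Nop56 (0.03) and Snord61 (0.42) in Rbmx (-0.01). Snord13 and Snord118 (-0.52) had no measured spanning gene. An array signal does not separate a mature small RNA from the intron or the unspliced transcript around it.

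**Figure D4:**
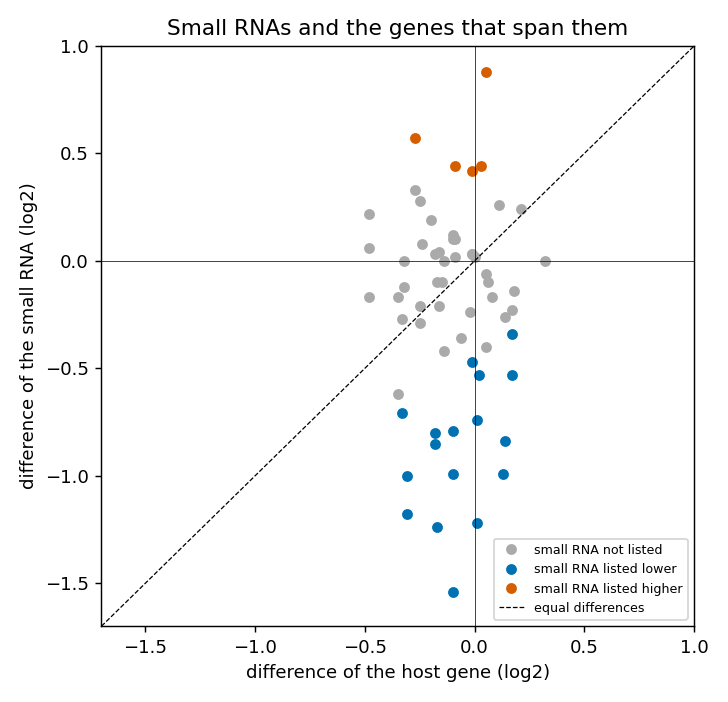
Difference of each small RNA (vertical axis, log2 units, animals 137 to 235 minus 84 to 128) against that of the 1 measured gene spanning it (horizontal axis) for 62 pairs; the dashed line marks equal differences. Spanning genes of the lower small RNAs lie between -0.33 and 0.17, and r over the 62 pairs is 0.007.

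Across the 29 arrays the genes most like Rabggtb by Pearson's r included 5 small RNAs among the 10 highest: Snora44 (r = 0.935), Snord13 (0.930), Snord73b (0.892), Snora73a (0.853) and Snord71 (0.843). The other 5 were the protein-coding genes Naa15 (0.867), Mtdh (0.860), Smc3 (0.858), Fip1l1 (0.836) and Nae1 (0.835). The lowest were Trmt112 (-0.846), Mrpl52 (-0.845), Krtcap2 (-0.840), Atp5g2 (-0.835) and Psenen (-0.831). The median over all genes was -0.017. These values include the step between the groups, and the arrays were the ones used to place it.

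Within a stretch, the likeness differed by gene. Snord73b, an snoRNA of the host Rps3a1, followed Rabggtb in each: r was 0.899 in animals 84 to 128 (n = 13), 0.881 in 137 to 235 (n = 16), 0.914 in 253 to 301 (n = 13) and 0.898 in 7 to 79 (n = 8). Snora44 had 0.586, 0.876, 0.945 and 0.676 in the same order. Snord71 had -0.160, 0.813, 0.895 and -0.423, and Naa15 had 0.356, 0.847, -0.153 and 0.533, so these did not keep their sign. Over the 78 small RNAs the median r with Rabggtb was 0.259 over the 29 arrays, 0.479 in animals 84 to 128 and 0.154 in 137 to 235.

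Genes of Rab prenylation, the pathway of Rabggtb, were listed in both directions. Of 30 in the list 29 were measured; 2 were lower and 2 higher, against 2.14% and 1.64% of all genes, and the median was -0.07. One of the lower ones was Rabggtb itself, and the other was Rab5a, the Rab of early endosomes, at -0.34 ± 0.08. Rabggta, the alpha subunit of the same enzyme, was higher by 0.37 ± 0.08, with a lowest, median and highest signal of 5.22, 5.55 and 5.90 against 5.59, 5.93 and 6.22. Rab1b, which acts between endoplasmic reticulum and Golgi, was higher by 0.45 ± 0.07, and 12 of 16 later livers lay above the earlier range. The Rab escort protein gene Chm had -0.16 ± 0.06, the lipid donor enzymes Fdps and Ggps1 0.68 ± 0.35 and -0.21 ± 0.09, and the related transferase subunit Pggt1b -0.29 ± 0.09, none of them listed. Without the 3 animals 4 of the 29 were lower, Gdi2 and Rab10 being added. Among genes at or above the median level, with p-values adjusted over them alone, 6.22% were lower and 4.56% higher. These shares stand beside the lists below as well.

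Among 45 measured snoRNA host genes 5 were lower and 1 higher, against 2.14% and 1.64% of all genes, with a median of -0.06. The lower ones were Rabggtb, Snhg17, Snhg6 (-0.69 ± 0.12), the translation initiation factor Eif4a2 (-0.32 ± 0.08) and the chaperonin subunit Tcp1 (-0.25 ± 0.07). Snhg9 was higher by 0.32 ± 0.07. Eif4a2 was no longer listed without the 3 animals. Outside this list the spanning genes 2410006H16Rik (-0.48) and Ipo7 (-0.25) were listed lower too. Their small RNAs were not listed: Snord49a (0.22), Snord49b (0.06) and Snord65 (-0.17) in 2410006H16Rik, and Snora23 (-0.29) in Ipo7. Neither were Snora20 (-0.21) in Tcp1 and Snora78 (-0.0) in Snhg9.

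The ribosomal protein genes that were listed were all higher. Of 57 measured, 6 passed, against 1.64% of all genes: Rpl29 (0.64), Rplp1 (0.60), Rpl28 (0.55), Rps26 (0.39), Rps18 (0.32) and Rpl10a (0.31). None was listed lower by limma, although 9 were lower at an unadjusted p under 0.05 and the median of the list was -0.04. Ribosomal protein genes have many near-identical pseudogenes, with which a probe set can share signal. Of all 89 Rpl and Rps genes, 6.74% were listed higher. Among protein-coding genes at or above the median level, 6.55% of those spanning 0.297 to 8.06 kb were listed higher. Whether ribosomal protein genes differ from other genes of like span and level was not tested.

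RNA splicing factors were lower where they were listed: 8 of 36 measured genes, against 2.14% of all genes, with a median of -0.14. None was higher by limma, also none at an unadjusted p under 0.05. The kinases Clk4 and Clk1, which phosphorylate SR proteins, were lower by -0.49 ± 0.08 and -0.39 ± 0.10. Srsf11, an SR protein, was lower by -0.35 ± 0.06, with 13 of 16 later livers below the earlier range, and Luc7l2 of the U1 particle by -0.34 ± 0.06. The other listed ones were Rbm25, Rbm39, Hnrnpu and Prpf4b.

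Oxidative phosphorylation genes were listed in both directions. Of 46 measured, 9 were lower and 3 higher, against 2.14% and 1.64% of all genes, and the median was -0.09. Uqcrb of complex III was lower by -0.45 ± 0.09 and Ndufs1 of complex I by -0.40 ± 0.09. Atp5d, given above, Cox8a (0.49 ± 0.10) and Cox6a1 (0.33), both of complex IV, were higher. Without the 3 animals 7 were lower and 3 higher.

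In 5 other lists 1 or 2 members were listed, where the shares over all genes were again 2.14% lower and 1.64% higher. Of 20 PPAR-alpha targets 2 were lower, Acot4 and Acadm, with a list median of -0.16, or -0.24 without the 3 animals. Of 16 cholesterol synthesis genes 1 was higher, the regulator Srebf2 (0.52 ± 0.12), and 5 were higher at an unadjusted p under 0.05. The median of that list was 0.41, with 15 of 16 above 0, but 0.10 without the 3 animals. Of 17 antioxidant enzymes 2 were higher, Gpx4 (0.23 ± 0.07), which reduces lipid peroxides, and Prdx2 (0.22 ± 0.04). Of 18 heat shock genes Hspe1, the mitochondrial co-chaperonin, was lower (-0.37 ± 0.11). Of 15 genes of the p53 and senescence list Sesn1 was lower (-0.39 ± 0.11).

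No member was listed by limma in 25 lists with 438 measured genes, of which 27 were lower and 21 higher at an unadjusted p under 0.05. That is 11% of them, against 15.6% of all named genes. Histone genes had a median of 0.04 over 11 measured genes, core clock genes -0.08 over 18, immediate early genes 0.05 over 24 and endoplasmic reticulum stress genes 0.00 over 19. Lipogenesis had 0.13 over 17 genes, gluconeogenesis -0.04 over 10, bile acid synthesis and transport -0.14 over 15 and xenobiotic metabolism -0.15 over 22. Sex-biased liver genes had -0.25 over 31, NRF2 targets -0.04 over 24, acute phase genes 0.21 over 25, interferon response genes -0.07 over 29 and cell cycle genes 0.15 over 27. Several of these medians moved without animals 84, 87 and 235. The median then was -0.44 for sex-biased genes, -0.24 for bile acid genes, and 0.01 each for lipogenesis and cell cycle genes. It changed sign for histone genes (-0.02), gluconeogenesis (0.04) and interferon response genes (0.01), and was -0.02 each for core clock genes and NRF2 targets. Without the 3 animals members were listed in 5 of the 25: Sult2a2, Sult2a6 and Ugt2b1 lower among sex-biased genes, Saa4 and Hpx higher among acute phase genes, Pcx higher in gluconeogenesis, Cd68 higher among macrophage markers, and Stab1, Eng, Gpr182 and Ehd3 higher among endothelial markers.

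The liver label was borne out by 20 measured hepatocyte markers, whose mean level lay between 9.46 and 10.25 in animals 84 to 128 and between 9.32 and 10.21 in animals 137 to 235. Their median difference was 0.04. In whole tissue, fewer cells of a type and less RNA per cell cannot be told apart. Macrophage markers had a median difference of 0.32, above 0 in 15 of 17, and 0.25 without the 3 animals. Their mean level ranged from 5.52 to 7.37 before and from 6.16 to 8.63 after the boundary, animal 235 being highest. The group medians of that mean level were nearly equal, at 6.53 and 6.57. Sinusoidal endothelial markers had 0.29 (0.35 without the 3 animals), above 0 in 14 of 15. Their mean levels went from 6.55 to 8.43 (median 7.73) and from 7.52 to 8.27 (median 7.94). Neutrophil markers had 0.29 (0.32 without the 3 animals), above 0 in 15 of 15. Their mean levels went from 3.21 to 3.89 (median 3.29) and from 3.29 to 5.0 (median 3.58). T and NK cell markers had -0.15, above 0 in 2 of 15, and -0.07 without the 3 animals. Medians were 0.08 over 11 B and plasma cell markers, 0.10 over 17 stellate and fibroblast markers (0.17 without the 3 animals), -0.07 over 10 cholangiocyte markers (-0.04), 0.02 over 11 adipocyte markers (0.00) and 0.08 over 7 erythroid markers. The part of these cell types in the differences above, that of Ly96 included, was not tested.

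Single livers carried strong signal of other tissues. Pancreatic acinar markers had a median difference of 0.06 over 14 genes. Cpb1, a pancreatic carboxypeptidase, had a median of 2.37 in animals 84 to 128 and 2.35 in 137 to 235, but reached 11.74 and 9.88 in single livers. Mammary epithelium markers had a median of 0.32 over 14 genes, and the milk casein Csn2 reached 12.05 among the later livers against a median of 2.41. Slc4a1 of red cells reached 7.35 and the neutrophil protease Mmp9 9.56, both in the later group. The 7.84 that animal 161 reached as mean level of the mammary markers and the 9.63 of animal 96 for the pancreatic ones were the highest of the 29 livers. Without animals 96 and 161, 489 genes were lower and 310 higher, and Rabggtb differed by -2.28 ± 0.35. Animal 149 stayed in that repeat, although its mean pancreatic level of 7.54 was the highest of the later livers, whose median was 3.22.

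Protein-coding genes listed in the 2 directions differed in genomic span, the distance from gene start to end in the RefSeq table, introns included. The 440 lower ones had a median span of 31.7 kb (quartiles 16.6 and 63.4) and the 335 higher ones 10.4 kb (quartiles 4.75 and 19.0). Genes not listed had 18.7 kb. Since listed genes had higher signals than the others, with median levels of 6.63 and 6.27 against 3.85, the comparison was repeated among genes at or above the median level, of which 6.22% were lower and 4.56% higher when p-values were adjusted over them alone. With the adjustment over all genes kept, protein-coding genes of this level were cut into 5 equal bins by span. In the bin with the shortest genes 1.91% were lower and 6.55% higher. The order was turned in the longest, with 4.59% lower and 0.717% higher. The share of higher genes was smaller in each next bin, at 4.35%, 2.34% and 1.39% between these ends, and without the 3 animals it went from 7.88% to 1.29%.

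**Figure D5:**
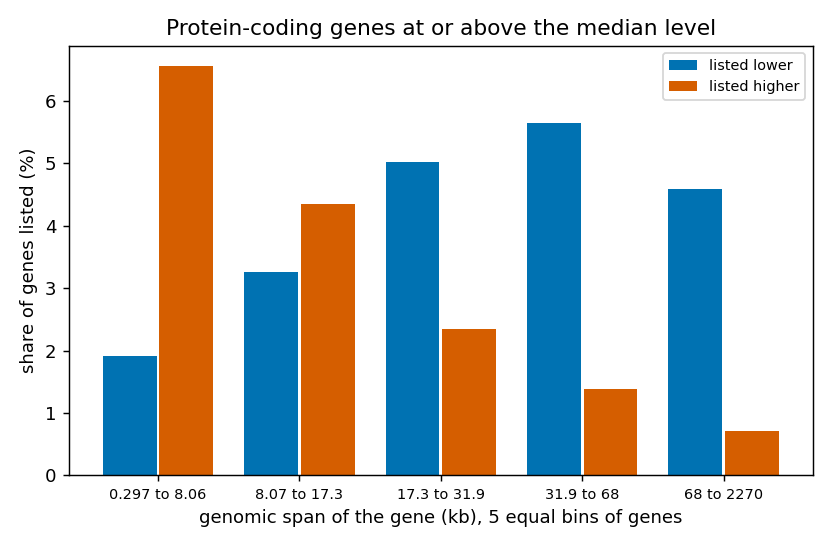
Percentage of protein-coding genes listed as lower or higher in animals 137 to 235 (vertical axis) in 5 equal bins of genomic span in kb (horizontal axis), among genes at or above the median level. Higher genes go from 6.55% in the shortest bin to 0.717% in the longest, and lower genes from 1.91% to 4.59%, with their highest share, 5.64%, in the bin before the longest.

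The 21 livers outside the comparison, which share no sample with it, show the same genes across another interval. In animals 253 to 301 minus animals 7 to 79, 295 of the 475 lower genes were below 0 (62.1%), with a median of -0.06, against 47.4% of all genes with a median of 0.01. For the 363 higher genes 46.0% were below 0, close to the share of all genes, and the median was 0.03. The small RNAs differed more: the median was -0.85 over Snora genes, 25 of 26 below 0, and -0.37 over Snord genes, 44 of 47 below 0. Rabggtb had -1.65, Snora44 and Scarna6 -1.46 each. Part of these outer differences lies before animal 84. In animals 7 to 79 Snora44 ranged from 9.47 to 10.28 and Scarna6 from 9.28 to 9.99. All of these livers were above the medians of animals 84 to 128, 8.78 and 8.72. The outer differences are therefore no repeat of the step between animals 128 and 137. Below animals 84 to 128 in animals 253 to 301 were 469 of the 475 lower, 65 of the 363 higher and 10410 of all 22180 genes. Above animals 137 to 235 in animals 7 to 79 were 372, 70 and 11042. Each of these counts uses a group that gave the list. In animals 7 to 79 Ggnbp2 ranged from 8.09 to 8.84 and Rpph1 from 10.1 to 11.37, mostly outside the range of animals 84 to 128. For both genes all these livers but animal 64 lay on the side of animals 137 to 235. The ranges there were 7.94 to 8.43 and 10.54 to 11.21. For these genes animals 84 to 128 thus stood apart from the stretches on either side. Tmem47 (5.96 to 7.36) and Acadm (9.75 to 11.1) in animals 7 to 79 overlapped the ranges of both compared groups. The outer stretches were placed on the same values too, so these figures are a description as well.

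Within animals 253 to 301 Snora44 and Scarna6 can be read in the same steps as Rabggtb. Snora44 lay between 6.74 and 8.69 in animals 253 to 270, at 8.47 in animal 282 and between 9.01 and 9.38 in animals 284 to 301. Scarna6 lay between 7.29 and 7.95, at 8.07, and between 8.48 and 9.20 in the same order. The 5 highest-numbered livers thus had Rabggtb, Snora44 and Scarna6 signals within the range of animals 84 to 128. Some lower-numbered livers were inside it too for part of these genes. Animal 270 was so for Rabggtb (7.87) and Snora44 (8.69), and animal 282 for Snora44 and Scarna6. Animal 258 was so for Snora44 (8.57) and animal 257 for Scarna6 (7.95). The steps were read off these same values.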

How the data were processed

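The authors deposited log2 signals of 41345 probe sets on 50 arrays; the submitters' processing notes name RMA and Affymetrix Expression Console 1.4.1. RMA makes the distributions of arrays alike, so a change in total RNA is not seen, and levels of different probe sets are not comparable as amounts. Labelling used the WT Plus kit on 100 ng of total RNA, per the labels' protocols. In the platform annotation 23521 probe sets had 1 gene symbol, 1814 several and 16010 none. Genes were named from the first kind only, by the probe set with the highest median, which left 22180 genes, 21994 of them in the RefSeq table (GRCm38.p6) used for biotype, span and neighbours, without regard to strand.

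The 29 arrays were fitted with limma 3.58.1 in R 4.3.3 (lmFit, eBayes with trend, Benjamini-Hochberg over all named genes); scripts were tested on simulated data. Each liver is a separate animal by its number; number of arrays limits the precision. The named genes are Rabggtb, the 15 largest listed differences each way that were also listed without animals 84, 87 and 235, genes without overlap, up to 4 listed members of a list and any member of the Rab prenylation and snoRNA host lists, the 10 genes most and 5 least like Rabggtb, and the widest marker of 4 cell types. Further listed members, neighbours, small RNAs with the genes spanning them, and Rpph1 were chosen after their values were seen. Of 828 genes in 35 lists, 718 were matched. The stretches, members and lists were chosen with earlier results of these data known. Animals 84, 87 and 235 had been set apart in that earlier work. No sequences were analysed here, and 1 of the 15 largest higher differences is not reported here.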

Additional observations from a re-analysis of the deposited data

Results flagged for a closer look

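Among animals 7 to 79 (n = 8), which lie outside the comparison, 18 genes and probe sets of the report were examined for a single liver far from the others, and 5 had one. For a single gene chance gives about 1 in 20. The 18 were chosen from these data and share the same livers, so 5 of 18 cannot be judged against that rate. Animal 64 stood apart in 4 of them: Ggnbp2 at 8.84, Glmp at 7.33, Rpph1 at 10.10 and the probe set of Rabggtb and Snord45c at 6.74. Animal 73 stood apart for Atp5d at 4.85.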

How the results depend on the processing

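Counts of lower and higher genes stayed within 1.5 times 475 and 363 under 7 alternatives: without animals 84, 87 and 235, without animals 96 and 161, the mean of all probe sets, a level filter, centred arrays, all 50 arrays in 1 fit, and ranks. Lower counts ranged from 433 to 690 and higher counts from 295 to 506, and lower genes made up 53.7% to 61.2% of those listed. The Rabggtb difference stayed between -2.28 and -2.38, and on ranks of the 29 arrays it was -14.36 ± 3.12 (SE) in units of rank. The number of genes whose groups did not overlap was 7, and 12 without animals 84, 87 and 235; with fewer livers separation is easier. It was 7 or 8 in the other settings run. Of the 30 leading genes Acot4 alone lost its listing, with the mean of its probe sets (-0.50) and on ranks. Rpl29 (0.45) and Rps26 (0.19) also lost it with the mean of their probe sets. Smc3, Eif4a2, Tcp1, Hspe1, Gpx4, Prdx2 and Sesn1 lost it in 1 to 3 settings each. No paired analysis was possible because the replicate numbers are animal numbers, which the groups do not share.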
